A study of Mus musculus with 12 samples.

Results

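Nuclear-encoded respiratory chain genes were followed across 4 groups of mouse macrophages. A gene counted as a member when it was protein-coding, its symbol began with Ndufa, Ndufb, Ndufc, Ndufs, Ndufv, Uqcr, Cox4, Cox5, Cox6, Cox7, Cox8 or Atp5, and it held at least 100 reads over the 12 libraries. Of 47937 genes in the count table, 89 protein-coding genes matched by name and 82 of these reached the read minimum. All 82 passed the filter on low counts, so none was lost to it. Complex I had 36 subunits among them (7 core and 29 supernumerary), complex III had 8 and complex V 16, and the 13 genes of complex IV were 12 subunits and Cox7a2l, a supercomplex factor, which makes 73 genes of these complexes. The prefix Ndufa also caught the 8 assembly factors Ndufaf1 to Ndufaf8, which help to build complex I and are not part of it, and the prefix Atp5 caught Atp5s, coupling factor B. The 7 genes under the minimum were Cox6a2 with 65 reads, Cox6b2 with 11, Cox4i2 with 3, and Cox7b2, Cox8b, Cox8c and Ndufa4l2 with 0. The member closest to the minimum was Cox7a1 with 147 reads.

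The cells were bone marrow-derived macrophages of strain C57BL/6, grown with CSF-1 (20 ng/ml) for 7 days. Resting macrophages (M0) were compared with macrophages stimulated with IFN-γ (50 ng/ml) and LPS (20 ng/ml) for 18 h, termed IFNγ+LPS. In the other two groups, resting or stimulated cells received 50 µM of T863 (DGAT1i), given for 18 h, an inhibitor of the enzyme DGAT1 that forms triglycerides from diacylglycerol. Each group held 3 libraries of bulk RNA. The labels give no time for M0, and they do not say whether the 3 libraries of a group came from separate mice, so p-values measure the spread between these libraries. A description label names T864 for 1 of the M0+DGAT1i libraries and T865 for another, where the source label of all 3 has T863. In bulk RNA, fewer cells and less RNA per cell cannot be told apart.

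The respiratory chain passes electrons from NADH through complex I, or from succinate through complex II, to complex III, cytochrome c and complex IV, where oxygen is reduced, and the proton gradient made on the way drives ATP synthesis at complex V. Most subunits are encoded in the nucleus and imported, and a small set comes from mitochondrial DNA, so the complexes join products of both genomes. Macrophages given IFN-γ and LPS are known for a shift from respiration towards glycolysis and for mitochondria that make reactive oxygen species.

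Promoters are shown for 5 members whose levels carry the comparisons below: Cox5a, which had the largest rise with IFNγ+LPS, Ndufa4, which fell, Atp5b, which fell with DGAT1i in stimulated cells, Ndufs8, which fell with DGAT1i in both states, and Ndufaf4, whose DGAT1i responses had opposite signs. The sequences are from RefSeq (GRCm38.p6) and run from 250 bases before to 50 bases after the annotated start, 5′ to 3′ on the gene's strand. Capitals mark every match, on either strand, to the searched letters.
Cox5a, chr9:57520982-57521281, plus strand: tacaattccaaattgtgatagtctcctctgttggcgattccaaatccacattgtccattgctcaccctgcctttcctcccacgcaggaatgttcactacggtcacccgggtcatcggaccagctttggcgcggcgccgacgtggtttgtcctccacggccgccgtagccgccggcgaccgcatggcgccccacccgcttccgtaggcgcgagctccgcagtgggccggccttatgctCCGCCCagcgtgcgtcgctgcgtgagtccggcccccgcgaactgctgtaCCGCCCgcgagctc
Ndufa4, chr6:11907401-11907700, minus strand: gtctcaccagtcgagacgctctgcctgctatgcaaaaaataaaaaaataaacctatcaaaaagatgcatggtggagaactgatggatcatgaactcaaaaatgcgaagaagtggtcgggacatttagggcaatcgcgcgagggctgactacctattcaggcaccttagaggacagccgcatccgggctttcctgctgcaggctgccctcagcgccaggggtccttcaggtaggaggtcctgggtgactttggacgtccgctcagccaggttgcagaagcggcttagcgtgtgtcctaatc
Atp5b, chr10:128083057-128083356, plus strand: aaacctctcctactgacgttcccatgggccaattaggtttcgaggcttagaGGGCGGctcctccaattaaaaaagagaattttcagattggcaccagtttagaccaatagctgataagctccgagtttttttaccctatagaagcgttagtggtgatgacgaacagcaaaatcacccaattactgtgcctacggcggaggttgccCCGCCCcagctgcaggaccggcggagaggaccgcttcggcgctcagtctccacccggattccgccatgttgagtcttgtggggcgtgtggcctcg
Ndufs8, chr19:3912725-3913024, minus strand: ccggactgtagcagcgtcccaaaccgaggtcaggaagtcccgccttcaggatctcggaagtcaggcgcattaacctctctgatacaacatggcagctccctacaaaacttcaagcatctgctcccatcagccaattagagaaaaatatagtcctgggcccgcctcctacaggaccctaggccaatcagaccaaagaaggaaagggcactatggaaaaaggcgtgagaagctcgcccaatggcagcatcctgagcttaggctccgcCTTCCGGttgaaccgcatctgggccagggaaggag
Ndufaf4, chr4:24897833-24898132, plus strand: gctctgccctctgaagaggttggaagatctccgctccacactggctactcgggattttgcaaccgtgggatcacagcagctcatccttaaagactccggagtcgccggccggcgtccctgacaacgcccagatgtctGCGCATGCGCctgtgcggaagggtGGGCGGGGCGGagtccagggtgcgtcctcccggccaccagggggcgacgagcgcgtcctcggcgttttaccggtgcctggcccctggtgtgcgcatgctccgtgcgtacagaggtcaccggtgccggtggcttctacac
The letters searched were GCGCATGCG or GCGCCTGCG for NRF1, CCGGAAG for ETS factors such as GABPA, AAGGTCA for the estrogen-related receptors, AAGATGGCG for YY1, GGGCGG for SP1, TTCNNNGAA for the gamma-activated site, and the NF-κB motif. The NRF1 letters begin 113 bases before the Ndufaf4 start and overlap their own match on the other strand, and the ETS letters lie on the other strand 16 bases into the Ndufs8 transcript. Cox5a and Atp5b hold the SP1 letters only, and Ndufa4 has no match, which says only that these letters are not in this window.

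A promoter was found in RefSeq for 70 members. Those without an entry included Atp5a1, Atp5mpl, Cox4i1, Cox6c, Ndufa2, Ndufaf6, Ndufb9, Ndufs1, Uqcrb, Uqcrc2 and Uqcrq. The NRF1 letters stood in 17 of 70 member promoters (24.3%) and in 4.49% of the promoters of all 27025 genes. The ETS letters were in 15 of 70 (21.4%, against 9.12% of all), the receptor letters in 7 (10.0%, against 4.66%) and the YY1 letters in 7 (10.0%, against 1.49%). SP1 letters were found in 31 of 70 (44.3%, against 35.9%), the gamma-activated site in 5 (7.14%, against 8.47%) and the NF-κB letters in 1 (1.43%, the same share as over all genes). The 27025 genes outnumber the 11760 that passed the filter on low counts. The promoter sets were not matched for expression or GC content. NRF1 and YY1 are known regulators of respiratory chain genes, and a match of letters is a description of these promoters and not a bound site. Among the members called higher with IFNγ+LPS on the TMM scale, 4 of 32 promoters held the NRF1 letters, among those called lower 4 of 12, and among the rest 9 of 26. In the same order the counts were 6, 2 and 7 for ETS, 1, 1 and 5 for the receptors, and 3, 0 and 4 for YY1. They were 14, 7 and 10 for SP1, 3, 0 and 2 for the gamma-activated site, and 0, 0 and 1 for NF-κB. These small counts were not tested.

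The libraries held between 4996014 and 6621671 reads assigned to genes, and 1 CPM (reads of a gene per 1000000 reads of the TMM-scaled library) stood for 4.28 to 7.58 reads. Macrophage markers summed to between 7735 and 17812 CPM in every library. Activation markers summed to 33.3 to 41.5 CPM in the 3 M0 libraries and to between 10272 and 11654 CPM in the 6 stimulated libraries. Neutrophil markers summed to 31.6 to 38.7 CPM in M0, to 22.9 to 29.0 CPM in M0+DGAT1i, to 15.2 to 25.5 CPM in IFNγ+LPS and to 63.0 to 81.0 CPM in IFNγ+LPS+DGAT1i, with Retnlg at 0 in all, and 4 of their 8 genes passed the filter on low counts. The B cell, T cell, dendritic cell and stromal lists summed to at most 7.16 CPM in any library, and the erythroid markers had no read. The part of these cell type markers in the results below was not tested.

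The scale decides the sign of many differences between resting and stimulated cells. TMM scaling sets the bulk of the genes to no change, and its factors were 1.14 to 1.19 in the resting groups and 0.846 to 0.869 in the stimulated groups. With library size only, the change in IFNγ+LPS over M0 had a median of -0.46 on the log2 scale across the genes tested, in place of 0.01. The 82 members took 0.65% ± 0.00755 (SD, n = 3) of the reads in M0 and 0.578% ± 0.0207 in IFNγ+LPS. On the TMM scale the same members summed to 5474 ± 69.1 CPM in M0 and 6729 ± 179 CPM in IFNγ+LPS. The share of reads was thus lower in the stimulated cells and the TMM-scaled sum higher. Fold changes below are on the TMM scale, that is relative to the bulk of the genes, and the outcome by library size is given beside them.

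**Figure D1:**
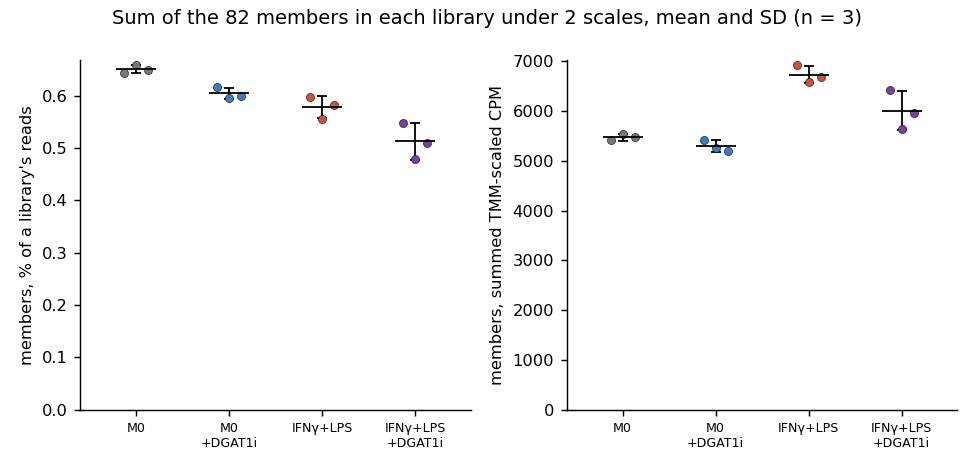
Sum of the 82 members in each library as a percent of all reads (left) and in TMM-scaled CPM (right), with points for libraries and bars for the mean and SD of 3. The M0 libraries average 0.65% of reads and IFNγ+LPS 0.578%, while the scaled sum goes from 5474 to 6729 CPM.

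Levels were compared between genes per kilobase of the principal transcript. In M0, Atp5b, the catalytic beta subunit of ATP synthase, had the highest level of all complex V members with 324 CPM per kb, followed by Atp5a1 (alpha) with 195, and the complex V median was 100. The lowest complex V member was Atp5g1 with 14.2 CPM per kb, for which the principal transcript of 4715 bases sets the divisor. In complex IV the order changed between the states: Cox4i1 led in M0 with 256 CPM per kb before Cox8a with 222, and Cox8a led in IFNγ+LPS with 351 before Cox4i1 with 278. Cox7a1 was the lowest of complex IV in both, with 7.91 and 2.24. In complex III, M0 levels ran from 22.9 CPM per kb for Uqcrq to 140 for Uqcr11. Complex I members were lower, with a median of 38.4 CPM per kb in M0 and a range from 3.81 for Ndufb2 to 110 for Ndufa7. The assembly factors were lower again, with a median of 6.91 CPM per kb and a range from 2.36 for Ndufaf4 to 10.4 for Ndufaf8. Long principal transcripts, 4371 bases for Ndufb2 and 3632 for Ndufaf4, set these lowest places. Before division, Ndufb2 was at 16.6 CPM in M0, above Ndufb4 at 11.8, and Ndufaf4 was at 8.56, above Ndufaf6 at 4.07.

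Where a subunit has tissue isoforms, the widely expressed form held nearly all reads. Cox4i1 was at 196 ± 1.13 CPM (SD, n = 3) in M0 and its partner Cox4i2, known from lung, had 3 reads over all 12 libraries. Cox6b1 was at 123 ± 4.33 CPM and Cox6b2, known from testis, had 11 reads. Cox8b, Cox8c, Cox7b2 and Ndufa4l2 had none of 72135967 reads, which allows up to 0.0416 CPM without TMM scaling. The heart and muscle form Cox6a2 was below the read minimum with 2.41 ± 0.298 CPM in IFNγ+LPS, 0.325 ± 0.0813 in M0, 0.723 ± 0.201 in M0+DGAT1i and 0.286 ± 0.316 in IFNγ+LPS+DGAT1i, beside group means of 106 to 144 CPM for Cox6a1. These Cox6a2 values rest on few reads and were not compared by a test. Of the 3 genes that encode the same mature c subunit of the ATP synthase ring, Atp5g3 was highest per length in M0 with 130 CPM per kb. Atp5g2 was at 38.2 and Atp5g1 at 14.2, an order set by the 4715-base transcript of Atp5g1. Before division by length, Atp5g3 was at 93.7 CPM, Atp5g1 at 66.9 and Atp5g2 at 28.0.

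**Figure D2:**
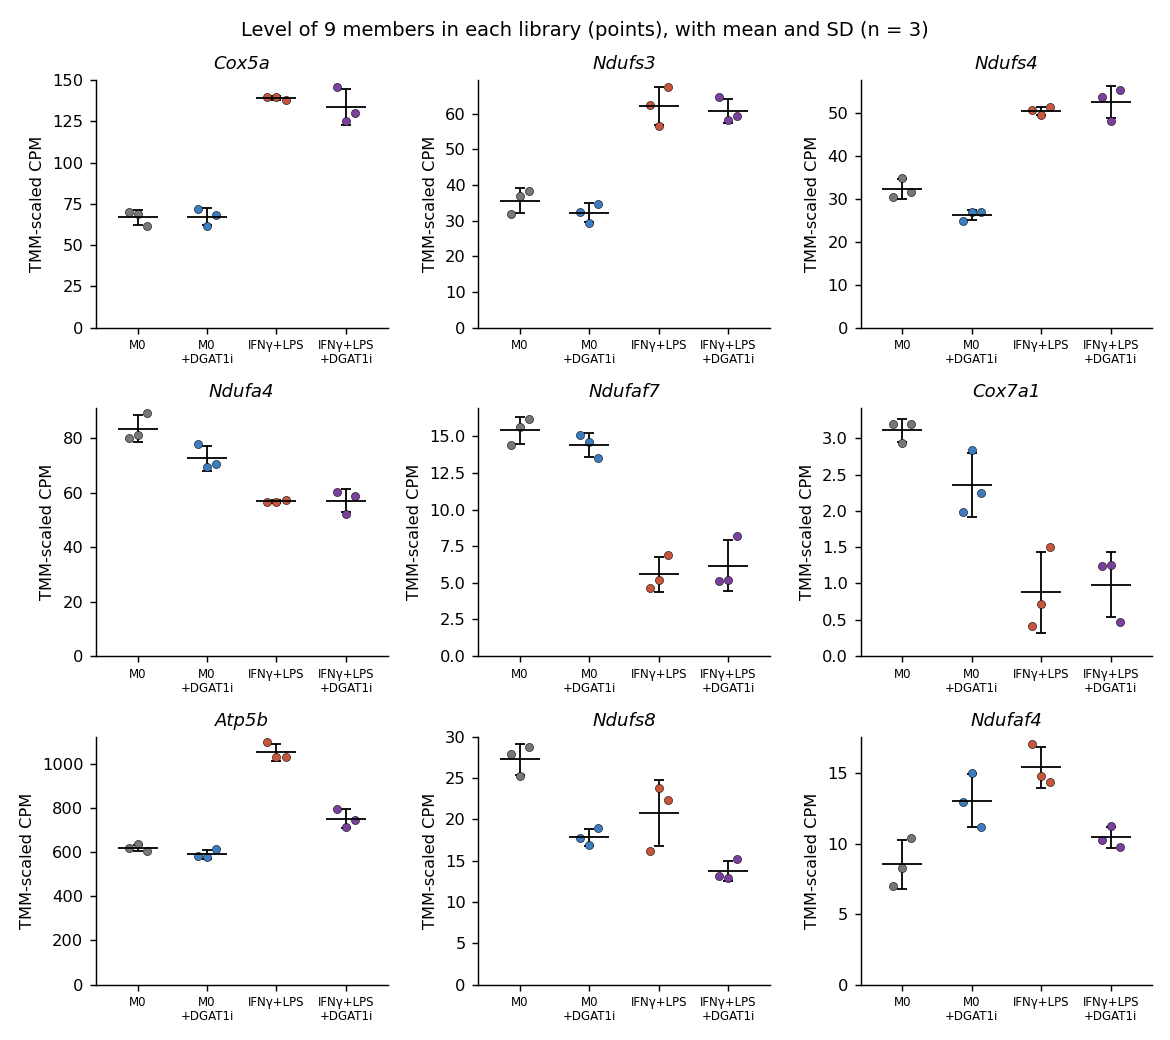
TMM-scaled CPM of 9 members in each of the 12 libraries (points), with the mean and SD of 3 libraries per group. Cox5a lies between 61.3 and 71.9 in the 6 resting libraries and between 125 and 146 in the 6 stimulated ones, and Ndufs8 is lower with DGAT1i in both states; by library size only, Cox5a, Ndufs3, Ndufs4, Atp5b and Ndufaf4 also stay higher and Ndufa4, Ndufaf7, Cox7a1 and Ndufs8 lower in IFNγ+LPS than in M0.

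The comparison of IFNγ+LPS with M0 asks how activation changes these genes. On the TMM scale 37 members rose and 13 fell at an adjusted p under 0.05, and with library size only 6 rose and 50 fell. On the TMM scale, 73.3% of all genes tested were called, 37.1% higher and 36.2% lower. Among the members 61.0% were called on that scale, 45.1% higher and 15.9% lower. The share of all genes called by library size is not given here, so the library-size counts have no such share beside them. The median log2 fold change of the members was 0.15, against 0.01 over all genes tested, and by library size the medians were -0.32 and -0.46. Every member called lower kept its sign by library size, and 17 of the 37 that rose did. The 6 members that rose on both scales were Cox5a, Cox7a2, Cox8a, Ndufs3, Ndufaf4 and Atp5b. Values of the 3 M0 and 3 IFNγ+LPS libraries did not overlap for 43 members that were higher and 14 that were lower, and over all genes 75.4% did not overlap, 38.2% higher and 37.1% lower.

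**Figure D3:**
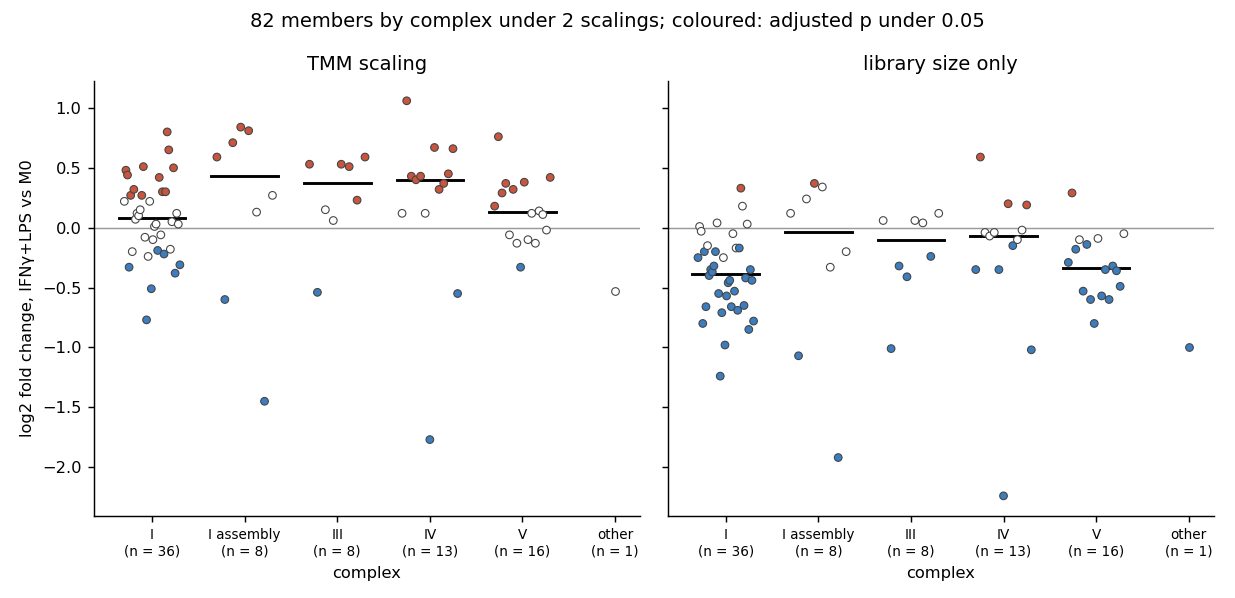
Log2 fold change of each member between IFNγ+LPS and M0 by complex, with TMM scaling (left) and library size only (right); bars are medians and colour marks an adjusted p under 0.05 (red higher, blue lower). With TMM scaling the medians are 0.08 for complex I, 0.37 for III, 0.40 for IV and 0.13 for V, and by library size they are -0.38, -0.10, -0.07 and -0.34.

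In complex I, the entry point for electrons from NADH, 12 of 36 subunits rose and 7 fell with IFNγ+LPS. Over all genes 73.3% were called, 37.1% higher and 36.2% lower. By library size 5 of the 12 stayed above 0. The median log2 fold change on the TMM scale was 0.08. Ndufs3, a core subunit of the matrix arm, was at 31.8, 36.8 and 38.3 CPM in M0 and at 62.5, 56.5 and 67.4 CPM in IFNγ+LPS. The groups did not overlap, and the log2 fold change was 0.80 ± 0.09 (SE, adjusted p = 4.55e-12), or 0.33 by library size. Ndufs3 shares 88 exon bases with Kbtbd4 on the other strand, and the strand setting of the count is not given in the sources used here. Ndufs4, a supernumerary subunit of the same arm, was at 30.4, 34.8 and 31.6 CPM in M0 and at 50.7, 49.5 and 51.3 CPM in IFNγ+LPS, a log2 fold change of 0.65 ± 0.09 (adjusted p = 3.31e-09). It was higher in every stimulated library and stayed above 0 by library size at 0.18.

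The 7 core subunits of complex I did not move together. Ndufs7, which holds the last iron-sulfur cluster before the quinone site, rose by 0.50 ± 0.09 on the log2 scale, with 0.03 by library size. Ndufs1, the largest iron-sulfur subunit, fell by 0.22 ± 0.07 (adjusted p = 0.00465), with -0.69 by library size. Ndufs8, another iron-sulfur subunit, was at 25.2 to 28.8 CPM in M0 and at 16.2 to 23.8 CPM in IFNγ+LPS. It was lower in every stimulated library, with a log2 fold change of -0.38 ± 0.12 (adjusted p = 0.00289), and 1 of the 12 fits that each leave out a library did not call it. Ndufv1, which binds NADH, and Ndufv2 were not called, with log2 fold changes of 0.12 ± 0.08 and 0.03 ± 0.08.

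Among the supernumerary subunits, Ndufb11 of the membrane arm had the largest decrease. It was at 36, 35.3 and 39 CPM in M0 and at 21.9, 22.3 and 20.2 CPM in IFNγ+LPS, with no overlap and a log2 fold change of -0.77 ± 0.10 (adjusted p = 2.38e-09). Ndufb11 shares 117 exon bases with Rbm10 on the other strand. Ndufb4 fell by 0.51 ± 0.18, Ndufa12 by 0.33 ± 0.10, Ndufv3 by 0.31 ± 0.09 and Ndufb8 by 0.19 ± 0.08 on the log2 scale, all lower by library size too. For Ndufb8 the call was lost in 4 of the 12 fits without a library and with DESeq2 (adjusted p = 0.0569). Increases in this class included Ndufab1, the mitochondrial acyl carrier protein, at 0.51 ± 0.09 (0.04 by library size), and Ndufa10 at 0.48 ± 0.07 (0.01 by library size).

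The 8 complex I assembly factors ran from -1.45 for Ndufaf7 to 0.84 for Ndufaf4 on the log2 scale. Ndufaf1, Ndufaf3, Ndufaf4 and Ndufaf5 rose, Ndufaf2 and Ndufaf7 fell, and the signs of all 6 held by library size. Ndufaf7, a methyltransferase, was at 14.4, 15.6 and 16.2 CPM in M0 and at 4.63, 5.22 and 6.93 CPM in IFNγ+LPS. The groups were far apart and the log2 fold change was -1.45 ± 0.18 (adjusted p = 1.38e-10). Ndufaf4 was at 6.97, 8.26 and 10.4 CPM in M0 and at 17.1, 14.8 and 14.4 CPM in IFNγ+LPS, a log2 fold change of 0.84 ± 0.16 (adjusted p = 4.87e-06). Ndufaf5 was at 4.65, 4.93 and 5.57 CPM and then at 6.32, 9.72 and 10.3 CPM, with a log2 fold change of 0.81 ± 0.22 (adjusted p = 0.000753) that was not called by library size (0.34, adjusted p = 0.145). Both were higher in each stimulated library than in any M0 library. Ndufaf2 was at 6.26 to 7.80 CPM in M0 and 4.32 to 4.68 CPM in IFNγ+LPS, and its decrease of -0.60 ± 0.22 (adjusted p = 0.0116) was not called by DESeq2 (adjusted p = 0.0617) or without the third M0 library (-0.49, adjusted p = 0.0657).

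Complex III, which hands electrons from ubiquinol to cytochrome c, had 5 of 8 subunits higher and 1 lower. Over all genes 73.3% were called, 37.1% higher and 36.2% lower. By library size 4 of the 5 stayed above 0. The core protein Uqcrc2 rose by 0.53 ± 0.07 and the Rieske iron-sulfur protein Uqcrfs1 by 0.51 ± 0.08 on the log2 scale, with 0.06 and 0.04 by library size. The other core protein, Uqcrc1, was at 131 to 133 CPM in M0 and 133 to 143 CPM in IFNγ+LPS and was not called (0.06 ± 0.06). Uqcr11, a small subunit, was the member of complex III that fell, from 61.4 to 63.2 CPM in M0 to 40.0 to 45.9 CPM in IFNγ+LPS, with a log2 fold change of -0.54 ± 0.08 (adjusted p = 2.2e-08). Uqcr10, Uqcrh and Uqcrq rose, the largest being Uqcrq at 0.59 ± 0.09, and Uqcrh (0.23 ± 0.07) was below 0 by library size (-0.24) and not called by DESeq2 (adjusted p = 0.0532).

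Complex IV, cytochrome c oxidase, had 84.6% of its members called on the TMM scale, against 73.3% of all genes: 9 of 13 rose and 2 fell. By library size 3 rose and 5 fell, and 3 of the 9 stayed above 0. Cox5a, a subunit on the matrix side, was at 70.0, 69.0 and 61.3 CPM in M0 and at 140, 140 and 138 CPM in IFNγ+LPS. The level in every stimulated library was far above every M0 library, with a log2 fold change of 1.06 ± 0.07 (adjusted p = 1.03e-20), or 0.59 by library size. Cox7a2 and Cox8a, small membrane subunits, rose by 0.67 ± 0.08 and 0.66 ± 0.06 on the log2 scale, with 0.20 and 0.19 by library size. Cox5b, Cox6a1, Cox6b1, Cox7b, Cox7c and Cox7a2l rose by 0.32 to 0.45 on the TMM scale, and all of these were below 0 by library size, between -0.15 and -0.02. With length and GC trends taken out, Cox7b was at 0.14 in place of 0.37 and not called (adjusted p = 0.0645). Cox7a2l is a factor that links complexes III and IV. Cox4i1 and Cox6c were not called, both at 0.12 (SE 0.06 and 0.07). The heart and muscle isoform Cox7a1 was at 3.20, 2.93 and 3.20 CPM in M0 and at 0.421, 0.72 and 1.5 CPM in IFNγ+LPS. It was lower in all 3, at few reads, with a log2 fold change of -1.77 ± 0.40 (adjusted p = 0.000104).

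The other member of complex IV that fell was Ndufa4, which was once counted to complex I. It was at 80.1, 81.1 and 89.1 CPM in M0 and at 56.4, 56.7 and 57.3 CPM in IFNγ+LPS. The groups did not overlap and the log2 fold change was -0.55 ± 0.07 (adjusted p = 1.83e-09), or -1.02 by library size. Its relative AA467197, which the name rule does not cover, encodes a protein known to take the place of Ndufa4 in complex IV during inflammation. AA467197 was at 0.436, 0.266 and 0.557 CPM in M0, which stands for 3, 2 and 4 reads, and at 213, 208 and 185 CPM in IFNγ+LPS. The log2 fold change was 8.85 ± 0.15 (adjusted p = 4.16e-48), or 8.39 by library size. With DGAT1i the stimulated level of AA467197 was 198, 217 and 230 CPM and that of Ndufa4 60.3, 52.2 and 58.6 CPM. Neither gene was called for DGAT1i in IFNγ+LPS, with log2 fold changes of 0.09 ± 0.06 and 0.00 ± 0.08.

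**Figure D4:**
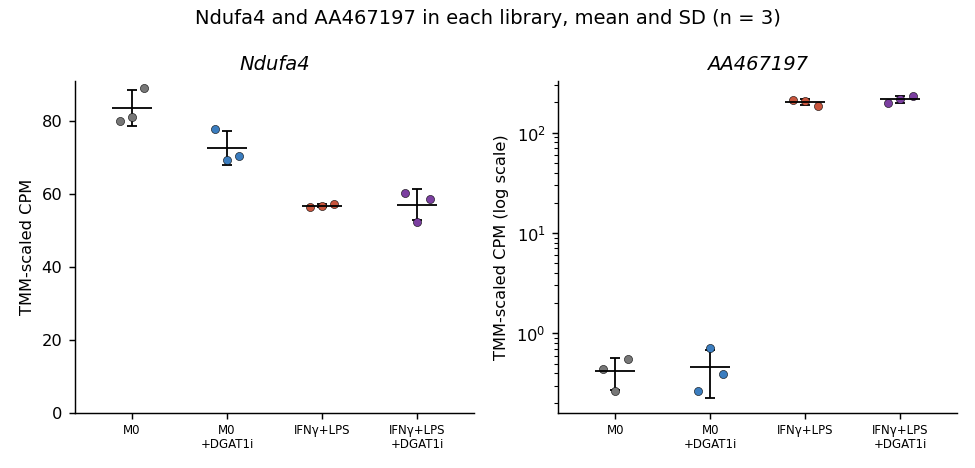
TMM-scaled CPM of Ndufa4 (left, linear axis from 0) and AA467197 (right, log axis) in each library, with the mean and SD of 3 libraries per group. Ndufa4 goes from 80.1 to 89.1 in M0 to 56.4 to 57.3 in IFNγ+LPS and AA467197 from 0.266 to 0.557 to 185 to 213, and both directions are the same by library size only.

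In complex V, the ATP synthase, 7 of 16 subunits rose and 1 fell with IFNγ+LPS. Over all genes 73.3% were called, 37.1% higher and 36.2% lower. By library size 1 of the 7 stayed above 0. That member was Atp5b, which was at 618, 636 and 608 CPM in M0 and at 1098, 1032.1 and 1032.5 CPM in IFNγ+LPS. The log2 fold change was 0.76 ± 0.05 (adjusted p = 6.5e-20), or 0.29 by library size. The other rises in the catalytic F1 head were Atp5a1 (alpha, 0.18 ± 0.05), Atp5c1 (gamma, 0.29 ± 0.06) and Atp5d (delta, 0.37 ± 0.07), all between -0.29 and -0.10 by library size. Atp5e (epsilon) was not called (-0.06 ± 0.08). In the peripheral stalk Atp5f1 and Atp5o rose by 0.32 ± 0.06 and 0.42 ± 0.06, with -0.14 and -0.05 by library size. The 3 c ring genes went different ways: Atp5g3 rose by 0.38 ± 0.07 (-0.09 by library size), Atp5g2 fell by 0.33 ± 0.11, a call lost in 1 of the 12 fits without a library, and Atp5g1 was not called (-0.13 ± 0.08). None of the 4 further membrane subunits, Atp5j2, Atp5k, Atp5l and Atp5mpl, was called.

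The same activation was measured a second time in cells with DGAT1i, from 6 other libraries. On the TMM scale 32 members rose and 13 fell, and by library size 6 rose and 51 fell. On the TMM scale 70.6% of all genes were called, 35.3% in each direction, and 54.9% of the members were. The share of all genes called by library size is not given here. Libraries did not overlap for 31 members that were higher and 12 that were lower, against 72.5% of all genes, 36.1% higher and 36.5% lower. The median of the members was 0.12, against -0.01 over all genes, but by library size it was -0.30, against -0.43 over all genes. It was 0.01 with length and GC trends taken out, 0.06 with no filter on low counts, and 0.05 without the first IFNγ+LPS+DGAT1i library. Of the members that rose without DGAT1i, 27 also rose with it, which is 73.0% of the 37 and 84.4% of the 32, and none was called the other way. Of the 13 that fell in each, 11 were the same genes (84.6% of either list). Over all genes, 82.7% of those higher and 82.2% of those lower without DGAT1i were called the same way with it. Ndufs4 had the largest rise under DGAT1i, from 24.8, 26.8 and 26.8 CPM to 53.7, 48.2 and 55.3 CPM, with a log2 fold change of 1.00 ± 0.09 (adjusted p = 1.52e-14), or 0.58 by library size. Cox5a at 0.99 ± 0.07, Ndufs3 at 0.92 ± 0.09, Ndufaf3 at 0.73 ± 0.14 and Cox7a2 at 0.67 ± 0.08 followed, and all 4 stayed above 0 by library size. Ndufaf7 (-1.23 ± 0.18), Cox7a1 (-1.21 ± 0.43), Ndufaf2 (-1.0 ± 0.25), Ndufb11 (-0.57 ± 0.11) and Ndufa12 (-0.56 ± 0.10) fell on both scales, and the Cox7a1 call was lost without the third IFNγ+LPS+DGAT1i library (-0.91, adjusted p = 0.0808).

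DGAT1i in stimulated cells asks what the inhibitor changes during activation, and both scales gave the same split here. With DGAT1i, 14 members fell and 1 rose. Over all genes 29.8% were called, 13.5% higher and 16.3% lower, and among the members 18.3% were, 1.22% higher and 17.1% lower. The share lower was near the share over all genes and the share higher was below it. The median was -0.07, against -0.01 over all genes. Libraries with and without DGAT1i did not overlap for 2 members that were higher and 20 that were lower, and over all genes 39.7% did not overlap, 18.1% higher and 21.6% lower. By complex, 3 subunits of complex I fell and 1 rose, and 2 of III, 3 of IV and 5 of V fell, with Ndufaf4 the assembly factor that fell. The neutrophil markers given above were higher in the same DGAT1i libraries, and their part was not tested.

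Ndufs8 had the largest fall with DGAT1i in IFNγ+LPS. It was at 16.2, 23.8 and 22.3 CPM without and at 13.2, 12.9 and 15.2 CPM with the inhibitor, with a log2 fold change of -0.61 ± 0.14 (adjusted p = 0.000679). The groups did not overlap. Ndufaf4 went from 17.1, 14.8 and 14.4 CPM to 10.3, 11.3 and 9.81 CPM, a log2 fold change of -0.55 ± 0.17 (adjusted p = 0.00865). Ndufv3, a small subunit near the NADH site, was the member that rose, from 39.6, 35.3 and 38.8 CPM to 51.9, 48.6 and 43.9 CPM (0.35 ± 0.09, adjusted p = 0.00253). In M0 it was at 44.0 to 50.8 CPM.

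The F1 head of ATP synthase held 3 of the 14 members that fell. Atp5b went from 1098, 1032.1 and 1032.5 CPM to 798, 714 and 745 CPM when DGAT1i was added, which is -0.49 ± 0.05 on the log2 scale (adjusted p = 2.69e-11). Every library with the inhibitor was below every library without it and, on the TMM scale only, above every M0 library. Atp5a1 went from 558, 535 and 551 CPM to 459, 423 and 433 CPM (-0.32 ± 0.05, adjusted p = 1e-06). Atp5c1 went from 157, 176 and 172 CPM to 144, 136 and 141 CPM (-0.27 ± 0.06, adjusted p = 0.000395). The alpha, beta and gamma subunits thus fell and delta and epsilon were not called (0.10 ± 0.07 and 0.02 ± 0.09). In the peripheral stalk Atp5f1 and Atp5o both fell by 0.22 ± 0.06, where the Atp5f1 groups overlapped and its call was lost in 1 of the 12 fits without a library. Further falls were Cox7c of complex IV, from 58.5, 67.7 and 69.5 CPM to 49.2, 48.4 and 52.3 CPM (-0.39 ± 0.10), Uqcr10 of complex III, from 76.6, 66.1 and 69.3 CPM to 59.1, 48.8 and 54.4 CPM (-0.38 ± 0.09), Ndufa10 (-0.37 ± 0.07), Ndufs1 (-0.30 ± 0.08) and Uqcrc1 (-0.30 ± 0.06). The calls of Cox5b (-0.17 ± 0.07) and Cox6b1 (-0.16 ± 0.06) were each lost in 4 of the 12 fits without a library and with DESeq2 (adjusted p = 0.105 and 0.0766).

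In resting cells, 6 members fell and 1 rose with DGAT1i on the TMM scale, and by library size 15 fell and 1 rose. On the TMM scale 24.4% of all genes were called, 11% higher and 13.4% lower, and 8.54% of the members were. The share of all genes called by library size is not given here. The median was -0.03, against 0.00 over all genes, and by library size -0.09, against -0.05. The groups did not overlap for 5 members that were higher and 16 that were lower, and over all genes 37.8% did not overlap, 17.9% higher and 19.9% lower. Without the third M0+DGAT1i library 4 members were called. Ndufs8 was again the largest fall, from 27.9, 25.2 and 28.8 CPM to 17.7, 16.9 and 18.9 CPM, with a log2 fold change of -0.61 ± 0.11 (adjusted p = 1.74e-05). Atp5e, the epsilon subunit of the F1 head, went from 74.1, 67.4 and 67.0 CPM to 62.0, 51.1 and 52.1 CPM (-0.33 ± 0.08, adjusted p = 0.00138). These groups did not overlap. Ndufs4 (-0.30 ± 0.09), Atp5j2 (-0.23 ± 0.07), Ndufa4 (-0.20 ± 0.07) and Atp5o (-0.19 ± 0.06) also fell, and each of these 4 calls was lost in 2 to 5 of the 12 fits without a library. The rise was Ndufaf4, from 6.97, 8.26 and 10.4 CPM to 13, 15 and 11.2 CPM (0.61 ± 0.15, adjusted p = 0.00179).

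The responses to DGAT1i in the 2 states come from different libraries and can be set side by side. Ndufs8 and Atp5o fell in both, which is 2 of the 6 falls in M0 and 2 of the 14 in IFNγ+LPS. Over all genes, 28.1% of the falls in M0 were also called lower in IFNγ+LPS, and these were 23.0% of the falls in IFNγ+LPS. For Ndufs8 the log2 fold change was -0.61 in each state, with a difference of 0.00 ± 0.19 (SE). Ndufaf4 was called in both states with opposite signs. Over all genes, 150 of the 1298 that rose in M0 were called lower in IFNγ+LPS. Of the 1571 that fell in M0, 126 were called higher there.

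The difference between the 2 responses was tested as an interaction, and 11 members were called, 9 with a lower response in IFNγ+LPS and 2 with a higher one. That is 13.4% of the members, against 18.5% of all genes, of which 8.66% were higher and 9.8% lower. Ndufaf4 differed most, by -1.16 ± 0.23 on the log2 scale (adjusted p = 0.000108). In the F1 head, 3 of 5 subunits were called with a lower response: Atp5b (-0.42 ± 0.07, adjusted p = 1.54e-05), Atp5a1 (-0.25 ± 0.07, adjusted p = 0.00677) and Atp5c1 (-0.28 ± 0.08, adjusted p = 0.01). Atp5e had a higher response (0.35 ± 0.12, adjusted p = 0.0313), but this call was lost in 6 of the 12 fits without a library and with length and GC trends taken out (adjusted p = 0.0829). In M0 the responses of Atp5b, Atp5a1 and Atp5c1 were -0.07 ± 0.05, -0.07 ± 0.05 and 0.02 ± 0.06, none called. The other calls were Ndufa10, Cox7c, Ndufs1, Uqcrq and Ndufab1 with a lower and Ndufs4 with a higher response. Of these, the calls of Ndufs4, Ndufab1 and Uqcrq were lost in 9, 8 and 4 of the 12 fits without a library. DESeq2 called 5 of the 11, and 7 were called without the second M0+DGAT1i library.

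**Figure D5:**
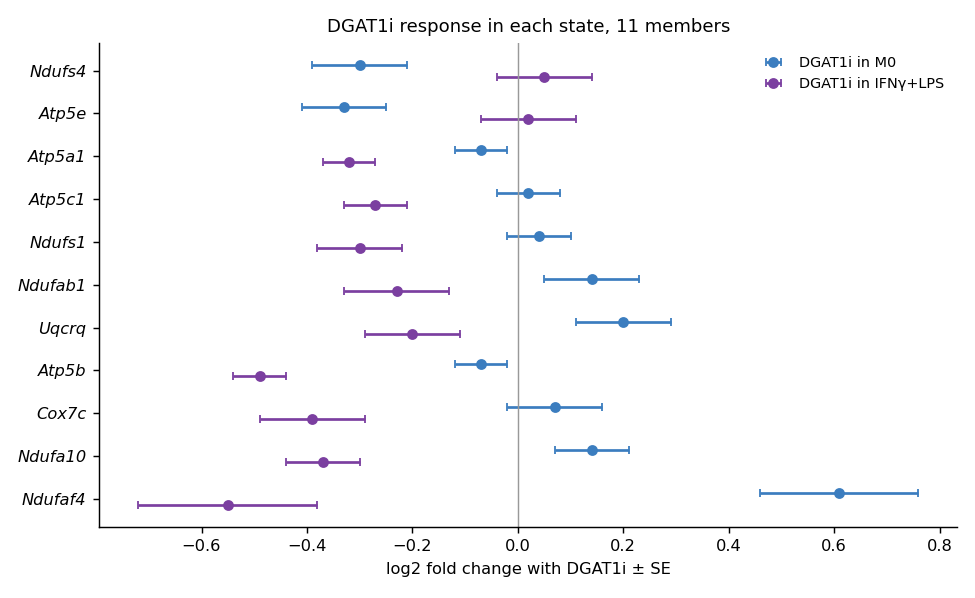
Log2 fold change with DGAT1i (TMM scale, ± SE) in M0 and in IFNγ+LPS for the 11 members whose responses differed in the interaction test. Atp5b lies at -0.07 in M0 and -0.49 in IFNγ+LPS and Ndufaf4 at 0.61 and -0.55, and the signs of the 11 differences are the same by library size only.

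Other genes of the pathway were taken from lists outside the name rule. Complex II, which feeds electrons from succinate, had 3 of 4 subunits higher with IFNγ+LPS: Sdhb by 0.93 ± 0.07, Sdhd by 0.91 ± 0.06 and Sdha by 0.16 ± 0.05, where Sdha was below 0 by library size (-0.30). With DGAT1i in IFNγ+LPS the same 3 fell, by 0.31 ± 0.07, 0.25 ± 0.06 and 0.34 ± 0.05. Over all genes 37.1% were higher with IFNγ+LPS, and 16.3% were lower with DGAT1i in IFNγ+LPS. Cytochrome c, Cycs, which carries electrons from complex III to IV, was at 34.1 ± 3.72 CPM (SD, n = 3) in M0 and 123 ± 12.5 CPM in IFNγ+LPS, a log2 fold change of 1.85 ± 0.08 (1.38 by library size), and at 93.0 ± 7.57 CPM with DGAT1i. Cyc1, the cytochrome subunit of complex III whose symbol lies outside the rule, rose by 0.78 ± 0.08 (0.31 by library size). With DGAT1i in IFNγ+LPS Cycs fell by 0.41 ± 0.08 and Cyc1 by 0.40 ± 0.08.

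Of 53 further assembly factors, 51 passed the filter on low counts, and with IFNγ+LPS 20 rose and 11 fell on the TMM scale, and 6 of the 20 were below 0 by library size. That is 60.8% called, 39.2% higher and 21.6% lower, against 73.3% of all genes, 37.1% higher and 36.2% lower. The largest changes were those of Coa5, Sco1 and Cox17, while Sco2 (-0.12) and Coa6 (0.26), also factors of complex IV, were not called. Sco1 went from 12.6 ± 2.04 to 82.9 ± 3.98 CPM, Coa5 from 98.6 to 651 CPM and Cox17 from 15.1 to 49.5 CPM, with log2 fold changes of 2.71 ± 0.10, 2.72 ± 0.06 and 1.71 ± 0.10 that were all above 1 by library size. Cmc2 and Sdhaf4 fell by 1.62 ± 0.22 and 1.62 ± 0.26. Of the 13 mitochondrially encoded subunits 7 passed the filter, and mt-Co1 rose (0.28 ± 0.06, but -0.19 by library size) while mt-Nd1, mt-Nd2, mt-Nd4 and mt-Cytb fell by 0.48 to 0.69. The other 6 were at or near 0, mt-Co2 at 0.365 CPM beside 5020 CPM of mt-Co1 in M0, so their counts cannot be read as levels. Among 13 regulators of mitochondrial biogenesis, 11 passed the filter. Ppargc1b, a coactivator, rose by 2.86 ± 0.17 (2.40 by library size) and its partner receptor Esrra by 1.49 ± 0.08 (1.03), Tfb2m, a mitochondrial transcription factor, fell by 0.82 ± 0.21. With DGAT1i in IFNγ+LPS 5 of the 11 fell (45.5%, against 16.3% of all genes), among them Ppargc1b (-0.72 ± 0.14) and Nrf1 (-0.42 ± 0.11).

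The members are short genes, with principal transcripts of 371 to 4715 bases, and 47 of the 82 are under 1000 bases, where the median over all genes tested is 2921. For these 47 the median log2 fold change between IFNγ+LPS and M0 was 0.12, against -0.02 for the other 855 short genes. With DGAT1i in IFNγ+LPS the medians were -0.03 and 0.03. Near-identical copies were found for 22 members, and the reads of the copies came to under 10% of the reads of the member in each case. Exon bases were shared with another gene for 30 members.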

How the data were processed

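RNA was measured by bulk RNA-seq in 12 libraries, and the authors deposited raw read counts per Ensembl gene. DESeq2 and the build GRCm38 appear in the submitters' processing notes, while for aligner, counter and annotation release the sources used here name nothing. The kit is a NEBNext Single Cell/Low Input kit per the labels and a stranded mRNA kit in the study's methods. Identifiers were matched to symbols with GENCODE M21.

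Counts were fitted for all 12 libraries with edgeR 4.0.16 (R 4.3.3): TMM scaling, filterByExpr, which left 11760 of 47937 genes, and a robust quasi-likelihood test with Benjamini-Hochberg adjustment over all genes tested. A call is an adjusted p under 0.05, and all p-values in the text are from this fit unless DESeq2 1.42.0 is named. The fit was tested on simulated counts. CPM values are TMM-scaled and standard errors come from the fit. The floor of 0.0416 CPM covers counting error only, while SE and SD also hold the spread between libraries.

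By rule, the text names for each comparison the 5 largest increases and 5 largest decreases among called members (for the difference between DGAT1i responses, the 5 smallest p-values), the tissue isoform pairs, the highest and lowest member of each complex per length, and genes of the pathway lists; other members were chosen by role after their values were seen. The members and lists were chosen with earlier results of these data known. Alternatives were RLE scaling, library size only, no filter, a mean CPM of at least 1, DESeq2, a block for the replicate number, removal of length and GC trends, only the 6 libraries compared, and leaving out each library in turn. A search for near-identical copies used BLAST 2.17.0, with a minimum of 95% identity and 20% coverage. The values of 1 member are not reported here.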

Additional observations from a re-analysis of the deposited data

Results flagged for a closer look

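For 11 members the interaction test called a difference between the DGAT1i response in IFNγ+LPS and that in M0 (log2 scale, response in IFNγ+LPS minus response in M0, edgeR quasi-likelihood test). The response was lower in IFNγ+LPS for Ndufaf4 (-1.16), Ndufa10 (-0.51), Cox7c (-0.46), Atp5b (-0.42), Uqcrq (-0.40), Ndufab1 (-0.37), Ndufs1 (-0.34), Atp5c1 (-0.28) and Atp5a1 (-0.25). It was higher for Ndufs4 (0.36) and Atp5e (0.35). Ndufaf4 had the only pair of responses that were both called and opposite in sign, 0.61 in M0 and -0.55 in IFNγ+LPS. For Ndufs4, Ndufab1, Atp5e and Uqcrq the call was lost in 9, 8, 6 and 4 of the 12 fits that each left out a library. Groups of 3 libraries are too small for a search for single outlying samples.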

How the results depend on the processing

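Between resting and stimulated cells, 20 of 50 called members changed sign with library size only, and 23 of 45 under DGAT1i, all of them called higher on the TMM scale. With library size only, the median of the members was -0.32 in place of 0.15 for IFNγ+LPS against M0 and -0.30 in place of 0.12 under DGAT1i, and DGAT1i in M0 had 16 calls in place of 7. With length and GC trends taken out, the median under DGAT1i was 0.01. DESeq2 called 5 of the differences between the DGAT1i responses in place of 11. Leaving out each library in turn gave 49 to 54 calls for IFNγ+LPS against M0, 13 to 21 for DGAT1i in IFNγ+LPS, 4 to 8 for DGAT1i in M0 (4 without the third M0+DGAT1i library), 39 to 47 for IFNγ+LPS against M0 under DGAT1i, and 7 to 12 for the difference (7 without the second M0+DGAT1i library). With a replicate block the counts were 54, 16, 9, 47 and 11. After the group mean of each gene was taken off, same-numbered libraries of different groups correlated at -0.0217 to 0.0687 (median 0.0115). Libraries with other numbers correlated at -0.058 to 0.0381 (median -0.00448). For 9 of 12 libraries the highest correlation was with a library of their own number. Whether the numbers pair the libraries was not tested, and the main fit did not pair them. Among single members, the calls of Ndufaf5 (library size only, 0.34), Ndufa4 in M0 (DESeq2, adjusted p = 0.0605, and length and GC trends taken out, adjusted p = 0.0517) and Cox7a1 under DGAT1i (DESeq2, adjusted p = 0.0517) were lost. None of the members with the largest calls in a comparison changed sign in any alternative run, library size only included, while several smaller rises did so there, as given beside them. The cause of these shifts was not tested. At 4.28 reads per CPM in the shallowest library, Cox7a1 had 2 to 8 reads in each of the 6 stimulated libraries.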
